A study of Mus musculus with 20 samples.

Results

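Across all arrays of the series, 9 mouse genes were followed: Cbr2, Mid1ip1, Igf2, Aplnr, Ccnd1, Mterf2, Gamt, Grb14 and Fscn1. They were chosen by their measured signal, which was raised in replicates 1 to 3 of the nerve-crushed gastrocnemius over non-transgenic gastrocnemius, so that rise is a description and carries no test. All 9 genes are on the array, with 11 probe sets of the 10748 in the deposited table, which covers 6603 genes through probe sets of 1 symbol. Aplnr and Ccnd1 have 2 probe sets each. A filter on the mean signal kept 9 of the 11 probe sets, 1 for each gene, among 7523 tested. The second probe sets of Aplnr (1423037_at) and Ccnd1 (1417420_at) lay below it. Fscn1 passed the filter only with crush replicates 1 to 3, the arrays that chose the genes, counted in its mean. All values below are log2 signals, so a difference of 1 is a doubling of signal, and a probe set's level is not set against that of another.

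RNA was measured on 20 Affymetrix arrays in 5 groups of 4, all from female C57BL/6 mice aged 14 weeks. The groups were gastrocnemius of SOD1G93A mice (SOD1), which carry a mutant human SOD1 transgene and were at a symptomatic age, gastrocnemius after a crush of the sciatic nerve, gastrocnemius of non-transgenic mice (NTg), triceps of SOD1 mice and triceps of NTg mice. The nerve was crushed for 30 s at 12 weeks and the muscle was taken 2 weeks later. Neither the genotype of the crushed mice nor the promoter of the transgene is stated in these sources, and a sham-operated group was not analysed here. The titles call the replicates biological, but no label ties a number to a mouse. All 11 of 11 skeletal muscle fibre markers were on the array and passed the filter, with summed linear signals between 24300 and 79300 over the 20 arrays.

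A crush interrupts motor axons while leaving the nerve sheath, so axons can grow back, whereas in SOD1G93A mice motor neurons are progressively lost. A muscle fibre without its nerve switches on fetal acetylcholine receptor subunits and myogenic factors, and it loses mass. The 9 genes have different known roles. Some act in growth and division: Igf2 encodes an imprinted growth factor of fetal muscle, Grb14 an adaptor that inhibits the insulin receptor, and Ccnd1 the D-type cyclin that activates Cdk4 and Cdk6 in G1. Others act in metabolism: Gamt makes creatine from guanidinoacetate, Mid1ip1 promotes the activity of acetyl-CoA carboxylase, Mterf2 belongs to the mitochondrial transcription termination factors, and Cbr2 is a carbonyl reductase. Aplnr is the receptor of the peptide apelin, prominent on endothelium, and Fscn1 encodes fascin, which bundles actin filaments in cell protrusions.

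Crush replicate 4 stood apart from replicates 1 to 3 and is given separately throughout. Its correlation with them over all tested probe sets was 0.902 to 0.909, against 0.974 to 0.976 among replicates 1 to 3. Replicate 4 correlated more closely with the SOD1 gastrocnemius arrays, at 0.930 to 0.951. A set of 20 denervation response genes, including acetylcholine receptor subunits and myogenic factors, had a summed linear signal of 28400 in replicate 4. The sums were 4110, 5180 and 4840 in crush replicates 1 to 3, 8070 to 19100 in SOD1 gastrocnemius and 1900 to 2200 in NTg gastrocnemius. A linear sum weighs the strongest signals most. Sln alone averaged log2 11.24 in crush replicates 1 to 3 and 7.50 in NTg gastrocnemius. The median log2 signal over the 20 genes was 6.49 in crush replicates 1 to 3 and 9.08 in replicate 4. It was 8.51 in SOD1 gastrocnemius and 6.15 in NTg gastrocnemius. Replicate 4 lay above the NTg range for 17 of the 20 genes, and its sum was the highest of all 20 arrays. The NTg triceps array numbered 4 is called triceps by its title and tissue label, while its description names gastrocnemius. Its mean correlation was 0.945 with the other NTg triceps arrays and 0.909 with the NTg gastrocnemius arrays, and triceps results are also given without it.

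The start regions of the genes are shown for 1 gene of each of the 3 patterns described next, to set their sequences beside genes that moved together in replicates 1 to 3. RefSeq windows of 300 bases (GRCm38.p6, 250 bases before to 50 after an annotated start, minus strand for all 3) were read for 7 of the 9 genes, with 4 windows for Igf2 and 2 for Mterf2. Aplnr and Ccnd1 had no match in the table. Capitals mark the E-box CANNTG, the core bound by myogenic helix-loop-helix factors, which reads the same pattern on both strands. The windows are Cbr2 at chr11:120731972-120732271, Mterf2 at chr10:85127978-85128277 and Grb14 at chr2:65022717-65023016.
Cbr2: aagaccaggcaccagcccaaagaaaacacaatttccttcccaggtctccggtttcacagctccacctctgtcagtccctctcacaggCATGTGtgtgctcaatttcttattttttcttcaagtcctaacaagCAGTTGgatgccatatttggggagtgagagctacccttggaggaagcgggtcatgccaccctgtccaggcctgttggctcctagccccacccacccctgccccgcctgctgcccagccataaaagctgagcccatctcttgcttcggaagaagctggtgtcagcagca
Mterf2: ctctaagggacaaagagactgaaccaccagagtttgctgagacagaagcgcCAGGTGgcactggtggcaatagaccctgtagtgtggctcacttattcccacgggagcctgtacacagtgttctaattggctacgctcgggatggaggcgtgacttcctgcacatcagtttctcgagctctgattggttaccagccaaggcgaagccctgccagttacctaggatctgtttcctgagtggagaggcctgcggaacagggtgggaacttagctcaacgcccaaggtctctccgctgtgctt
Grb14: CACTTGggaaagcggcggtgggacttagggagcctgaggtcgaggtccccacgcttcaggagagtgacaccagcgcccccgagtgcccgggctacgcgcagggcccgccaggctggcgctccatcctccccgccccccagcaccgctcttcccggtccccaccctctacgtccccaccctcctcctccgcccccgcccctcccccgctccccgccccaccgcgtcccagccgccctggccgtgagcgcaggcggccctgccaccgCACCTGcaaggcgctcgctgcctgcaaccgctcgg
Cbr2 and Grb14 hold 2 such matches each and Mterf2 holds 1. An E-box was found in 7 of the 11 windows (63.6%), against 23756 of all 32851 windows of that length (72.3%), so the motif was no more frequent here than in promoters at large. A match is a description of the letters only.

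In crush replicates 1 to 3, all 11 probe sets lay above every NTg gastrocnemius array. The share over all tested probe sets was 13.9%, and the choice of the genes fixes their count. Mean rises ran from 1.09 for Igf2 to 2.42 for Cbr2, which ranked 30 and 3 among the 7523 tested probe sets. Igf2 was the smallest rise of the 9 and Tspo, at 1.08, the next below it; Sln, Tubb6, Krt18 and Cpne2 also had large rises and are not among the 9. For 9 of the 11 probe sets replicates 1 to 3 were above all 17 other arrays, against a background of 2.86%. The same crush arrays chose the genes, so nothing is read from this count either. The exceptions were Mid1ip1, for which 3 other arrays reached the lowest of replicates 1 to 3, and Igf2, for which 5 did.

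Replicate 4 divided the genes into 3 patterns. It was above the NTg range for 3 genes (Cbr2, Mid1ip1, Igf2), within it for 3 (Aplnr, Ccnd1, Mterf2) and below it for 3 (Gamt, Grb14, Fscn1). Of all tested probe sets 35.2% were above, 28.3% within and 36.4% below, so this even division is close to that of the table as a whole. Among the 1044 probe sets raised in the same way in replicates 1 to 3, 50% were above, 19.3% within and 30.7% below.

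**Figure D1:**
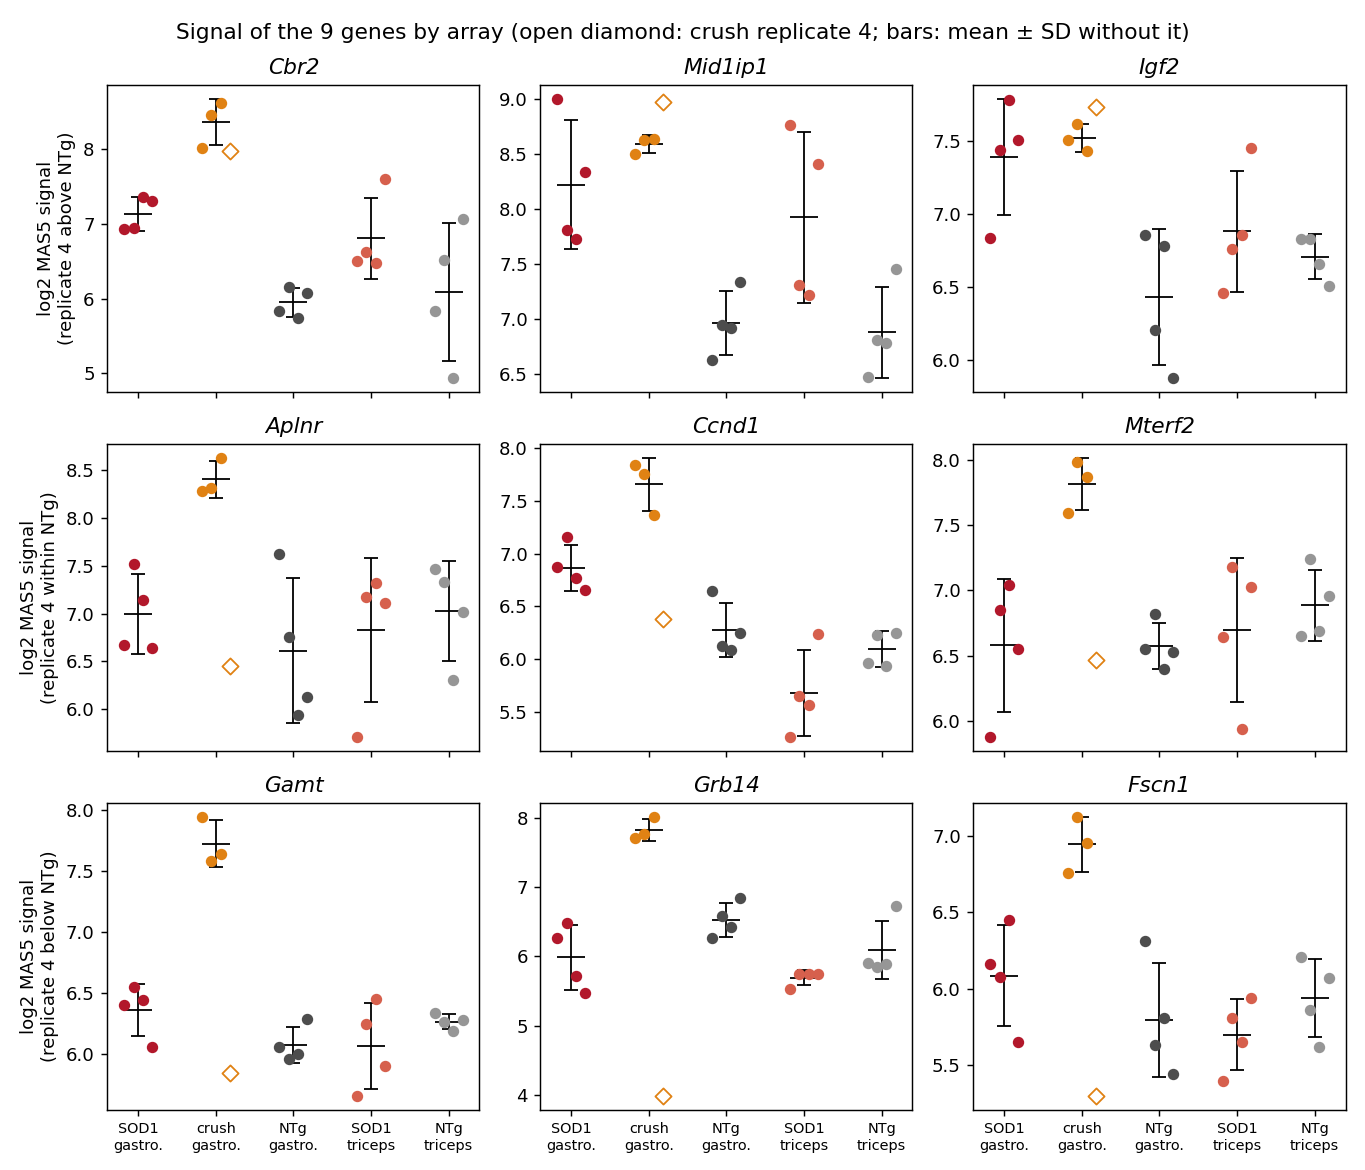
The log2 signal of each gene (vertical axis, 1 panel a gene, leading probe set) is plotted for the 4 arrays of each group; bars give the mean ± SD without crush replicate 4, which is the open diamond. Rows hold the genes for which the diamond was above, within and below the NTg gastrocnemius range, and for Grb14 it stands at 3.99, under every other array.

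Cbr2, Mid1ip1 and Igf2 were high in all 4 crushed muscles. Cbr2 read 8.02, 8.46 and 8.62 in crush replicates 1 to 3 and 7.98 in replicate 4, against 5.83, 6.15, 5.74 and 6.08 in NTg gastrocnemius. Its 4 crush arrays were the 4 highest of the series, and replicates 1 to 3 averaged 8.37 ± 0.31 against 5.95 ± 0.20 (SD, n = 3 and 4), a ratio of 5.35. Mid1ip1 read 8.50, 8.63 and 8.64 in crush replicates 1 to 3 and 8.97 in replicate 4, against 6.63, 6.95, 6.92 and 7.34 in NTg gastrocnemius. Here replicate 4 was the highest crushed muscle, 2.01 above the NTg mean where replicates 1 to 3 were 1.63 above. Igf2 read 7.51, 7.62 and 7.43 in crush replicates 1 to 3 and 7.73 in replicate 4, against 6.86, 6.21, 6.78 and 5.88 in NTg gastrocnemius. The crushed muscles were tightly grouped for this growth factor, while the NTg arrays spread over about 1 log2 unit.

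Aplnr, Ccnd1 and Mterf2 were high in crush replicates 1 to 3, while replicate 4 lay among the NTg arrays. Aplnr (1438651_a_at) read 8.28, 8.31 and 8.63 in crush replicates 1 to 3 and 6.45 in replicate 4, against 7.62, 6.76, 5.94 and 6.13 in NTg gastrocnemius. The rise of this apelin receptor was 1.79 over an NTg group with a wide spread (SD 0.76), and its second probe set gave a smaller rise of 0.76. Ccnd1 (1448698_at) read 7.84, 7.76 and 7.37 in crush replicates 1 to 3 and 6.38 in replicate 4, against 6.64, 6.12, 6.08 and 6.25 in NTg gastrocnemius. Both probe sets of the cyclin gave like rises, 1.39 and 1.51, and in both replicate 4 was inside the NTg range. Mterf2 read 7.59, 7.98 and 7.87 in crush replicates 1 to 3 and 6.47 in replicate 4, against 6.55, 6.82, 6.40 and 6.53 in NTg gastrocnemius. For this mitochondrial factor, replicate 4 minus the mean of the other crushed muscles was -1.34.

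Gamt, Grb14 and Fscn1 were high in crush replicates 1 to 3 and below every NTg gastrocnemius array in replicate 4. For Gamt and Fscn1 that margin was small and rests on 1 array. Replicate 4 read 5.85 and 5.30, where the lowest NTg arrays read 5.96 and 5.44. Gamt read 7.94, 7.58 and 7.64 in crush replicates 1 to 3 and 5.85 in replicate 4, against 6.06, 5.96, 6.00 and 6.29 in NTg gastrocnemius. Its rise in replicates 1 to 3 was 1.64, the lowest of them lay 1.29 above the highest NTg array, and the NTg SD was 0.15. Grb14 read 7.71, 7.76 and 8.01 in crush replicates 1 to 3 and 3.99 in replicate 4, against 6.26, 6.58, 6.43 and 6.84 in NTg gastrocnemius. No other gene of the 9 separated the crushed muscles as far: the signal of this insulin receptor adaptor in replicate 4 minus the mean of replicates 1 to 3 was -3.84, and it was 0.171 times that of NTg. Fscn1 read 6.76, 7.12 and 6.95 in crush replicates 1 to 3 and 5.30 in replicate 4, against 6.31, 5.63, 5.81 and 5.44 in NTg gastrocnemius. The fascin gene had a rise of 1.15, and its lowest crushed array of replicates 1 to 3 was 0.45 above the highest NTg array.

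Markers of other cells were set beside these patterns, and in bulk muscle fewer cells of a type and less RNA per cell cannot be told apart. The 12 endothelial markers summed to 1300 to 1480 in crush replicates 1 to 3, 909 in replicate 4 and 1170 to 1390 in NTg gastrocnemius. Replicate 4 was below the NTg range for 8 of these 12 genes, within it for 4 and above it for 0, where 36.4%, 28.3% and 35.2% of all tested probe sets lay. The sums of crush replicates 1 to 3 overlapped those of NTg. Of the 10 endothelial markers tested in crush against NTg, 0 were called in limma with all 4 crush arrays, and 1, Cd34, rose without replicate 4 (log2 0.54, adjusted p = 0.036). Smooth muscle and pericyte markers (7 genes) summed to 2820 to 2950 in crush replicates 1 to 3, 2110 in replicate 4 and 2540 to 2750 in NTg gastrocnemius. Fibre markers summed to 40200 to 76400 in crush replicates 1 to 3, 79300 in replicate 4 and 43300 to 67400 in NTg gastrocnemius. The part of any of these in the signals of the 9 genes was not tested.

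**Figure D2:**
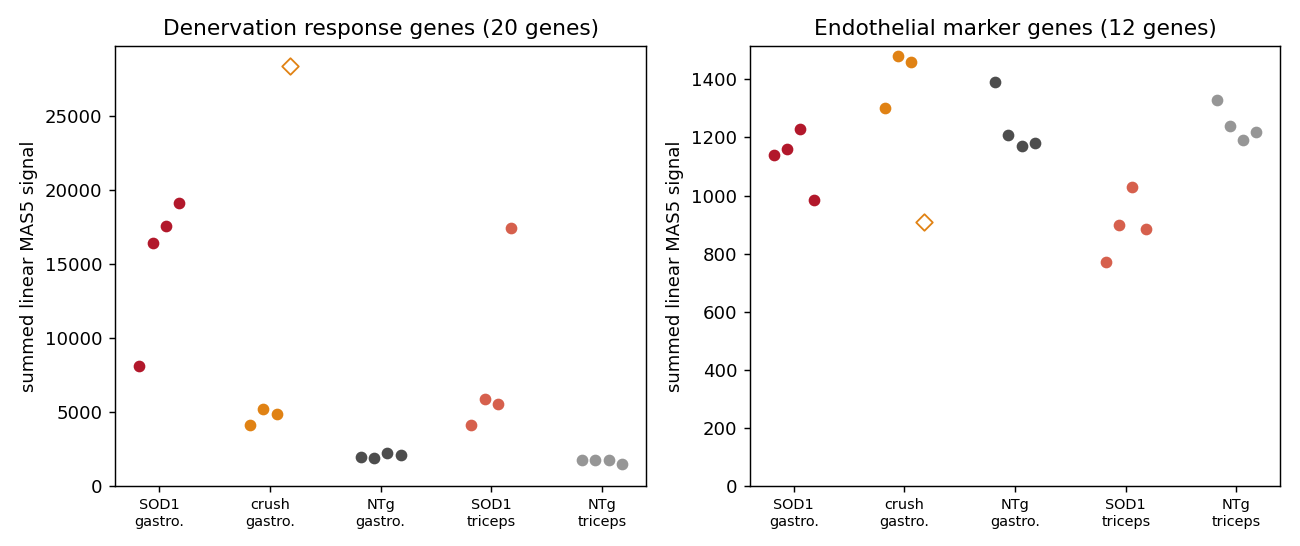
Summed linear signal per array (vertical axis) of 20 denervation response genes and 12 endothelial marker genes is plotted by group, with crush replicate 4 as the open diamond. Replicate 4 has the highest denervation sum, 28400, and an endothelial sum of 909, under every other gastrocnemius array.

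Some of the genes were also higher in SOD1 gastrocnemius. In SOD1 against NTg gastrocnemius, 3 of the 9 tested probe sets rose and 0 fell (limma over all 20 arrays, adjusted p under 0.05), against 5.97% of all tested probe sets rising and 6.02% falling. This comparison shares its NTg arrays with the one that chose the genes, whose NTg levels were low by that choice. The 3 that rose were Mid1ip1, Igf2 and Cbr2, and the median difference of the 9 was 0.38, against 0 over all tested probe sets. The arrays of SOD1 and NTg did not overlap, SOD1 higher, for 3 of 11 probe sets (Cbr2, Mid1ip1 and 1448698_at of Ccnd1), against 12.7% of the table.

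Mid1ip1 read 9.0, 7.81, 7.73 and 8.34 in SOD1 gastrocnemius, all above the NTg arrays given earlier. The difference was 1.26 (SE 0.32, a ratio of 2.39, adjusted p = 0.0174), and replicate 1 reached the level of the highest crushed muscle. That SOD1 array had the lowest denervation sum of its group, 8070. Without SOD1 replicate 4 or NTg replicate 1 the adjusted p was 0.0647 or 0.0526.

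Igf2 read 6.84, 7.44, 7.78 and 7.51 in SOD1 gastrocnemius. Replicates 2 to 4 were above all NTg arrays and replicate 1 was within their range. The difference was 0.96 (SE 0.23, a ratio of 1.95, adjusted p = 0.013), close in size to the 1.09 of crush replicates 1 to 3. Without SOD1 replicate 4 or NTg replicate 4 the adjusted p was 0.0554 or 0.0512.

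Cbr2 read 6.93, 6.95, 7.36 and 7.31 in SOD1 gastrocnemius, above every NTg array and below every crushed one. The difference was 1.19 (SE 0.33, a ratio of 2.28, adjusted p = 0.0257). Leaving out 1 compared array kept the direction but ended the call in 6 of 8 cases: without SOD1 replicates 2, 3 or 4 the adjusted p was 0.0514, 0.0692 or 0.0881, and without NTg replicates 1, 3 or 4 it was 0.0615, 0.0679 or 0.0535.

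Ccnd1 (1448698_at) read 6.87, 7.16, 6.77 and 6.65 in SOD1 gastrocnemius, each above the highest NTg array, 6.64, the last by 0.01. The difference of 0.59 (SE 0.26) did not pass, at an adjusted p of 0.129. It passed in the fit without crush replicate 4, at 0.0372, which made 4 of 9 genes rise, against 8.59% of all tested probe sets. Replicate 4 enters the fit only through the shared estimate of the spread.

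The other 5 genes were not called in SOD1 gastrocnemius. Differences were 0.38 for Aplnr (95% interval -0.55 to 1.32), 0.28 for Gamt (-0.35 to 0.91), 0.01 for Mterf2 (-0.63 to 0.64) and 0.29 for Fscn1 (-0.34 to 0.92). Grb14 was the 1 gene with a lower mean, at -0.55 (-1.74 to 0.64), and its SOD1 arrays read 6.27, 6.48, 5.72 and 5.47. Adjusted p-values of the 5 ran from 0.554 to 0.992, and that of Grb14 was 0.0849 without crush replicate 4. Crush replicates 1 to 3 were above all SOD1 gastrocnemius arrays for 9 of the 11 probe sets, all but those of Mid1ip1 and Igf2. The share over all tested probe sets was 12.7%, and the same crush arrays chose the genes, so nothing is read from this count.

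**Figure D3:**
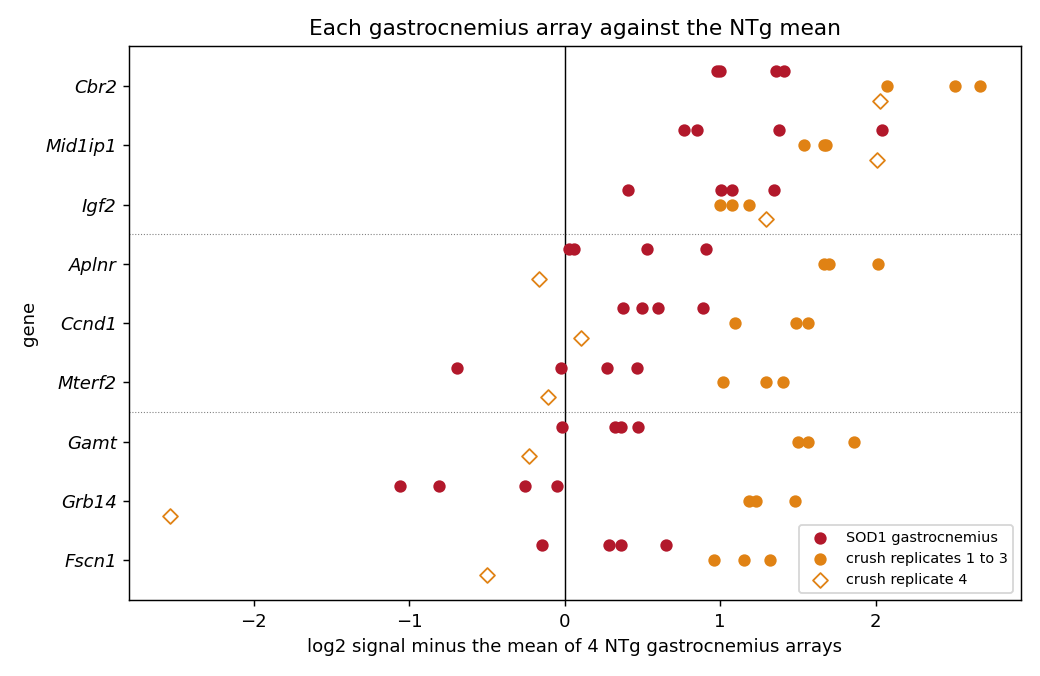
Each gastrocnemius array's log2 signal minus the NTg mean (horizontal axis) is plotted for the 9 genes, with SOD1 arrays in red, crush replicates 1 to 3 in orange and crush replicate 4 as the open diamond. For Grb14 the diamond lies at -2.54, and for Mid1ip1 and Igf2 the SOD1 and crush arrays overlap.

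Macrophage markers moved with SOD1 in this muscle: 7 of the 9 tested rose, including Lgals3 and the complement genes C1qa and C1qb, and their summed signal (11 genes) was 1550 to 2320 in SOD1 and 839 to 1100 in NTg gastrocnemius. In crush replicates 1 to 3 it was 972 to 1480. Of 14 tested denervation genes 12 rose in SOD1 gastrocnemius, with a median difference of 3.34. Their part in the rises of Mid1ip1, Igf2 and Cbr2 was not tested.

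In triceps, whose arrays do not enter the crush comparison, none of the 9 was called. In SOD1 against NTg triceps 0 of 9 rose or fell in limma, against 0.239% of all tested probe sets. Of all 7523 tested probe sets 1145 had an unadjusted p under 0.05, and of the 9 genes 2 did. Those 2 were Mid1ip1, with a difference of 1.05 (SE 0.32, a ratio of 2.06, adjusted p = 0.157), and Cbr2, with 0.72 (SE 0.33, adjusted p = 0.308). The median difference of the 9 was -0.20, against 0.01 over all tested probe sets. Without NTg triceps replicate 4 the adjusted p-values were 0.0949 to 0.885, and without crush replicate 4 there were again 0 calls, with 2.22% of the table called.

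Mid1ip1 read 8.76, 7.31, 7.22 and 8.41 in SOD1 triceps, against 6.47, 6.81, 6.78 and 7.45 in NTg triceps. Replicates 1 and 4 of SOD1 were above all NTg arrays and replicates 2 and 3 were within their range, and the same numbers were the high ones in SOD1 gastrocnemius. Cbr2 read 6.51, 6.63, 6.48 and 7.61 in SOD1 triceps, against 5.83, 6.52, 4.94 and 7.07 in NTg triceps. The groups overlapped, and the SOD1 array that stood out, replicate 4, also had the highest denervation sum of its group, 17400 against 4130 to 5900. For Cbr2 the highest NTg triceps array was also replicate 4, yet its denervation sum of 1470 was the lowest of all arrays. For Mid1ip1 the highest SOD1 triceps array was replicate 1, with the lowest sum of its group, 4130. The part of denervation in these values was not tested.

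Igf2 read 6.46, 6.76, 6.86 and 7.45 in SOD1 triceps, against 6.83, 6.83, 6.66 and 6.51 in NTg triceps, and the difference was 0.17 (95% interval -0.30 to 0.64). As for Cbr2, replicate 4 was the highest SOD1 array. Grb14 read 5.53, 5.74, 5.75 and 5.75 in SOD1 triceps, against 5.90, 5.85, 5.89 and 6.72 in NTg triceps. All SOD1 arrays were below all NTg arrays, the only such probe set of the 11 and a pattern of 2.30% of the table. The difference of -0.40 (SE 0.57) had an adjusted p of 0.746 in limma. Crush replicate 4 enters that fit only through the shared estimate of the spread. Without it the SE was 0.22, the 95% interval -0.85 to 0.05 and the adjusted p 0.307. The other 5 genes had differences between -0.42 (Ccnd1) and -0.19 (Mterf2).

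Endothelial markers summed to 772 to 1030 in SOD1 triceps and 1190 to 1330 in NTg triceps, with 0 of 10 tested called. Macrophage markers summed to 1110 to 2160 in SOD1 and 1120 to 1750 in NTg triceps, with 0 of 9 called. Without crush replicate 4, the endothelial gene Egfl7 fell by 0.68 (adjusted p = 0.0443) and the macrophage gene Lgals3 rose by 2.31 (adjusted p = 0.00274), the only calls of these lists in that fit. The part of either in the values of the 9 genes was not tested.

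**Figure D4:**
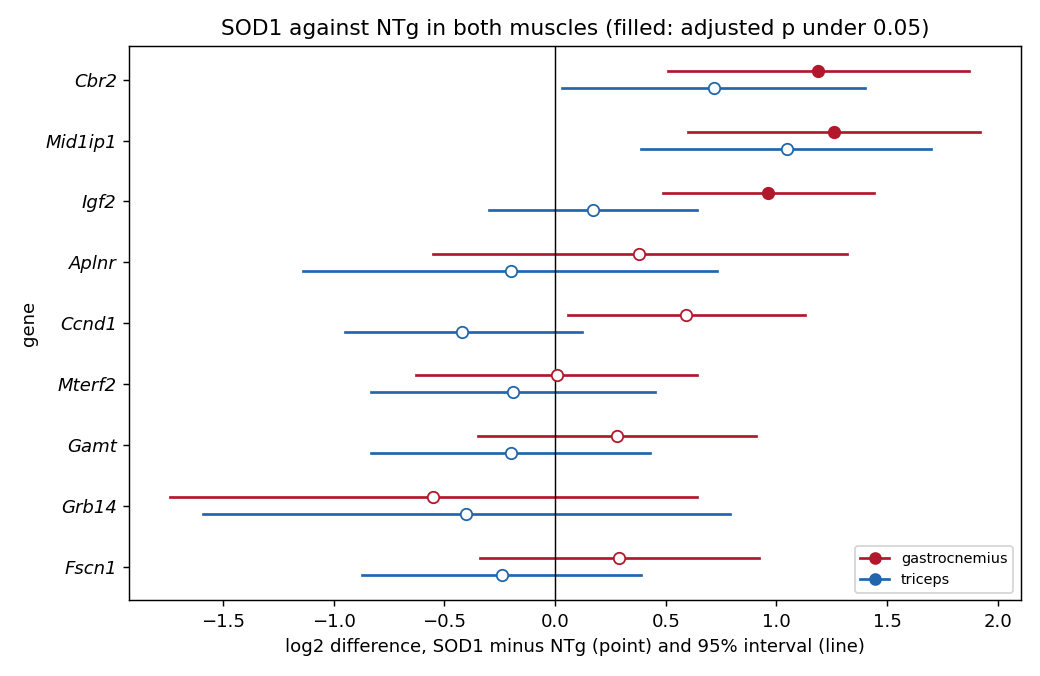
The difference in log2 signal, SOD1 minus NTg (horizontal axis), is plotted for each gene in gastrocnemius (red) and triceps (blue), with 95% intervals as lines and filled points for an adjusted p under 0.05. Cbr2, Mid1ip1 and Igf2 are filled in gastrocnemius, and no point is filled in triceps.

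Between the muscles of SOD1 mice, Ccnd1 differed. In SOD1 gastrocnemius against SOD1 triceps 1 of the 9 genes rose and 0 fell, against 1.85% of all tested probe sets rising and 2.99% falling. Ccnd1 (1448698_at) read 6.87, 7.16, 6.77 and 6.65 in SOD1 gastrocnemius, against 5.26, 5.65, 5.56 and 6.24 in SOD1 triceps. The groups did not overlap, and the difference was 1.19 (SE 0.26, a ratio of 2.28, adjusted p = 0.0163). Its second probe set read 6.01, 6.34, 5.97 and 5.87 in SOD1 gastrocnemius, against 4.61, 5.43, 4.84 and 5.65 in SOD1 triceps, a difference of 0.92 (SE 0.28) with an adjusted p of 0.0759 in a fit with no filter. These 2 were the only probe sets of the 11 without overlap, against 4.03% of the table with gastrocnemius higher. The call on the leading probe set was lost without SOD1 gastrocnemius replicate 2, SOD1 triceps replicate 1 or SOD1 triceps replicate 2, at adjusted p-values of 0.0699, 0.0622 and 0.0708.

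Of 11 tested fibre markers 2, Pvalb and Atp2a1, were also higher in SOD1 gastrocnemius than in SOD1 triceps, and the fibre sums were 43700 to 70600 and 24300 to 47100. Their part in the Ccnd1 difference was not tested. Igf2 differed by 0.51 between the SOD1 muscles (SE 0.23, adjusted p = 0.187), and by 0.70 without SOD1 triceps replicate 4, where it passed at 0.048. In NTg mice the muscles gave 0 calls of 9 (limma, adjusted p from 0.64 to 0.948), against 1.71% of the table. An unadjusted p under 0.05 was found for 0 of the 9, against 1077 of the 7523 tested probe sets. The NTg gastrocnemius arrays in this comparison were low by the choice of the genes, so nothing is read from these counts. Ccnd1 read 6.64, 6.12, 6.08 and 6.25 in NTg gastrocnemius, against 5.96, 6.23, 5.93 and 6.25 in NTg triceps.

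An interaction term tested whether the SOD1 difference itself varied with the muscle. It uses the NTg gastrocnemius arrays, whose levels were low by the choice of the genes. That choice favours a larger difference in gastrocnemius, so the sizes and intervals for the 9 genes are descriptions. In limma 0 of 9 genes and 0% of all tested probe sets were called, while 2 genes and 710 probe sets had an unadjusted p under 0.05. For Ccnd1 the gastrocnemius difference exceeded that of triceps by 1.01 (95% interval 0.25 to 1.77, adjusted p = 0.438), and for Igf2 by 0.79 (0.12 to 1.46, adjusted p = 0.49). The calls of Mid1ip1, Igf2 and Cbr2 in gastrocnemius are therefore not shown to be particular to that muscle.

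Other genes of the same pathways mostly did not pass. Among 12 other tested genes of insulin-like growth factor and insulin signalling, 1 rose and 1 fell in SOD1 gastrocnemius, against 5.97% and 6.02% of all tested probe sets: Igf2r, the receptor that clears Igf2, rose by 0.76 (adjusted p = 0.0433), and Irs1, an adaptor of the insulin receptor, fell by 0.81 (adjusted p = 0.0296). Without crush replicate 4 there were 2 that rose, with Akt2, and 1 that fell. After crush 0 of the 12 were called in limma with all 4 arrays, against 4.13% of all tested probe sets. Without replicate 4, Igfbp7, a binding protein, rose by 0.73 (adjusted p = 0.04) and Akt2, a kinase of insulin signalling, fell by 0.55 (adjusted p = 0.0167), against 2.27% of the table rising and 2.98% falling.

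Among 12 other genes of cyclin D and the G1 phase, 4 rose and 1 fell in SOD1 gastrocnemius. The 3 largest rises were those of the cyclin-dependent kinase inhibitors Cdkn1a (3.59, adjusted p = 0.00585) and Cdkn1c (1.39, adjusted p = 0.0198) and of the retinoblastoma gene Rb1 (2.16, adjusted p = 0.00524), while Rbl2, an Rb1 relative, fell by 0.44 (adjusted p = 0.0368). All 3 are known to restrain the G1 step that Ccnd1 promotes, and Cdkn1a is also among the denervation genes. After crush 1 of the 12 rose, Cdkn1c (1.39, adjusted p = 0.0345), and 0 without replicate 4. In SOD1 triceps 0 of the 12 were called, and 2, Cdkn1a and Rb1, rose without crush replicate 4.

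Around Mid1ip1, 0 of 10 other genes of fatty-acid synthesis rose in SOD1 gastrocnemius and 1 fell, Me1, the malic enzyme that supplies NADPH (log2 difference -1.26, adjusted p = 0.0076). Me1 also fell after crush, by 1.20 (adjusted p = 0.0155) and by 1.28 without replicate 4 (adjusted p = 0.0142), so it went the other way from Mid1ip1 in both. After crush 0 of the 10 rose in limma, with or without replicate 4. Thrsp, which was not called, averaged 8.47 in crush replicates 1 to 3 and read 6.46 in replicate 4. In NTg gastrocnemius it averaged 6.89, with a range of 6.29 to 8.03. Around Cbr2, 2 of 11 other carbonyl and short-chain reductases rose in SOD1 gastrocnemius, Cbr1 (0.68, adjusted p = 0.0471) and Akr1a1 (0.37, adjusted p = 0.0398), and 3 did without crush replicate 4, with Dhrs3. Akr1a1 also rose after crush, by 0.46 (adjusted p = 0.0299). In SOD1 gastrocnemius against SOD1 triceps the reductase Dhrs4 was higher by 0.67 (adjusted p = 0.0387). In SOD1 triceps 0 genes of the insulin, fatty-acid and reductase lists were called against NTg, with or without crush replicate 4.

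For the other genes the lists gave 0 calls in SOD1 against NTg of either muscle and after crush, with or without replicate 4. These were the lists for Gamt (4 other genes of creatine synthesis, transport and creatine kinases), Mterf2 (8 of mitochondrial transcription and genome maintenance), Fscn1 (7 of actin bundling) and Aplnr (3 of apelin signalling). Of the actin bundling genes, Actn2, a Z-disc protein of the sarcomere, was higher in gastrocnemius than in triceps in SOD1 mice (1.57, adjusted p = 0.00171) and in NTg mice (1.11, adjusted p = 0.0295). Denervation genes after crush included 3 that rose, Sln, Tubb6 and Myf6, and 1 that fell, Fbxo32, of 14 tested, and these counts were equal without replicate 4, where the median difference was 0.58 in place of 1.49.

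The 9 genes resembled each other mainly through the 3 crush arrays that chose them. Over 20 arrays the 36 gene pairs had Pearson correlations from -0.06 to 0.85, with a median of 0.59. Without crush replicates 1 to 3 the range over 17 arrays was -0.62 to 0.75 and the median 0.16. The arrays share their groups, so these values are descriptions.

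The genes closest to the mean profile of the 9 over 20 arrays, of 4823 searched, were Vim (r = 0.87), Ptcd3 (0.86), Bloc1s6 (0.84), Mrpl41 (0.84), Dnm1l (0.83), Coq7 (0.83), Lias (0.82), Dlat (0.81), Cd93 (0.80) and Dld (0.80). The search included crush replicates 1 to 3, the arrays that chose the 9 genes, so it favours genes raised in them. It was not run without those arrays, and all closest genes named here are descriptions. Vim, the intermediate filament gene vimentin, read 9.65 to 9.89 in crush replicates 1 to 3 and 9.03 in replicate 4, against 8.62 to 9.18 in NTg gastrocnemius. Dlat, a subunit of the pyruvate dehydrogenase complex, was the closest gene to both Grb14 (0.93) and Gamt (0.87). It read 9.49 to 9.67 in crush replicates 1 to 3 and 8.19 in replicate 4, against 8.77 to 8.89 in NTg gastrocnemius. Replicate 4 was below NTg for Dlat as for those 2 genes, a likeness that the search over all 20 arrays favours. Cd93, an endothelial and myeloid surface receptor, was closest to Fscn1 (0.89), with 7.34 to 8.02 in crush replicates 1 to 3, 6.11 in replicate 4 and 6.40 to 7.24 in NTg gastrocnemius.

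For the other members the closest genes were of varied kinds. Tef, a clock-controlled transcription factor, was closest to Mid1ip1 (0.89) and read 9.69 to 9.83 in crush replicates 1 to 3 and 10.19 in replicate 4, against 9.27 to 9.55 in NTg gastrocnemius. Msn, the membrane linker moesin, was closest to Igf2 (0.86), and 2210016F16Rik to Cbr2 (0.92). Decr1, an enzyme of fatty-acid oxidation, was closest to Ccnd1 (0.89), and Vim to Aplnr (0.84). Mrpl39, a mitochondrial ribosomal protein gene, was closest to Mterf2 (0.82), with 8.92 to 9.13 in crush replicates 1 to 3 and 8.76 in replicate 4, against 8.59 to 8.70 in NTg gastrocnemius. Replicate 4 was therefore above the NTg range for Mrpl39 and within it for Mterf2.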

How the data were processed

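Total RNA of muscle was hybridised to 20 Affymetrix arrays. The deposited table holds log2 values computed by the authors with MAS5, per the submitters' processing notes, which state neither a version nor a target level nor a filter. The scale was read from the values, which run from -3.66 to 13.3, and array medians of 6.61 to 6.76 were left unscaled. No detection calls were used, so whether low values, such as 3.99 for Grb14 in crush replicate 4, were detected signal is not known. The number of arrays limits the precision.

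The 9 genes and all gene lists were chosen with earlier results of these data known. Samples were grouped by title. Probe sets in the lowest 30% by mean (under 5.88) were left out. The platform annotation gives 1 symbol to 9874 probe sets, more than 1 to 387 and none to 487. Of a gene's single-symbol probe sets the one highest in mean stands for the gene, and the 9 genes were also described by every probe set.

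With limma 3.58.1 (R 4.3.3), a model of 5 group means was fitted to the 20 arrays together, moderated with a mean-variance trend on 15 residual degrees of freedom, with Benjamini-Hochberg adjustment over 7523 probe sets within each comparison and a threshold of 0.05. The script was tested on simulated data. Crush against NTg was fitted on the whole table, and its test is read only for genes other than the 9. P-values measure the spread between these arrays.

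Named genes were the 9 and at most 3 called genes per list and direction. The 10 closest genes to the mean profile and the closest gene of each of the 9 were also named. Marker genes beside a result, list genes called only in another fit, and Thrsp were named after their values were seen. Lists covered 9 pathways and 10 cell types. Satellite cell (6 genes on the array) and fibroblast (9) markers gave 0 calls against NTg in the fit of all arrays, and so did adipocyte markers (5). The Schwann cell gene Mbp fell after crush (-2.35, adjusted p = 0.0163) and the pericyte gene Abcc9 fell in SOD1 gastrocnemius (-0.60, adjusted p = 0.0375). Blood markers had 0 genes on the array, and lymphocyte and granulocyte markers had 1, below the filter.

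Same-numbered arrays did not deviate together in every pair of any comparison (r from -0.17 to 0.62), so numbers were not taken as pairs. Between the SOD1 muscles r was 0.57 and 0.62 for replicates 1 and 4, and -0.10 and -0.04 for replicates 2 and 3. Whether those arrays share a mouse is not labelled. The comparison of the SOD1 muscles and the interaction treated them as independent. The alternatives tried were no filter, a 60% filter, quantile normalization, scaling to the 75th percentile, the compared arrays alone, array weights, no trend, gene means, a replicate block and leaving out arrays in turn. Figures were drawn with matplotlib 3.10.9.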

Additional observations from a re-analysis of the deposited data

Results flagged for a closer look

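A set was the 4 arrays of a group for a probe set of the 9 genes. In 8 of 55 sets the highest or lowest array lay far enough from its neighbour to pass Dixon's critical value for 4 arrays. By chance about 5% of independent sets do. That rate cannot be used for the crush sets. The genes were chosen as high in crush replicates 1 to 3 with replicate 4 left free, which favours a gap at replicate 4. Probe sets of the same gene are also not independent. The count of 8 is therefore a description and is not set against the 5%. Of the 8, 3 were crush replicate 4. Grb14 was at 3.99 with the nearest array at 7.71. Aplnr (1438651_a_at) was at 6.45 with the nearest at 8.28, and Ccnd1 (1417420_at) at 5.73 with the nearest at 7.09. Another 4 were SOD1 triceps arrays. Cbr2 read 7.61 in replicate 4 with the nearest at 6.63, Aplnr (1438651_a_at) 5.71 in replicate 1 with the nearest at 7.11, Aplnr (1423037_at) 5.99 in replicate 3 with the nearest at 5.18, and Grb14 5.53 in replicate 1 with the nearest at 5.74. In the last the whole group spanned 5.53 to 5.75. NTg triceps replicate 4 read 6.72 for Grb14 with the nearest at 5.90.

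The second probe set of Ccnd1 (1417420_at) differed in its SOD1 effect between the muscles by 0.95. Every SOD1 gastrocnemius array was above the NTg gastrocnemius mean and every SOD1 triceps array was below the NTg triceps mean, and the probe set was below the filter. In a limma fit with no filter the difference had an SE of 0.40 and an adjusted p of 0.53. The NTg gastrocnemius arrays that it uses were low by the choice of the genes.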

How the results depend on the processing

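No called difference of the 9 genes changed sign. Over all alternatives and comparisons, 887 recomputed values kept their side of the threshold, 5 newly passed it and 13 lost it; the 13 all came from leaving out 1 array and are given with the genes above. Ccnd1 passed in SOD1 gastrocnemius with the compared arrays alone (0.59), array weights (0.66) and without crush replicate 4 (0.59), and Igf2 passed between the SOD1 muscles with array weights (0.71). The replicate block changed no call of the 9 genes. Counts over all probe sets moved more. SOD1 against NTg gastrocnemius gave 902, then 1768 with the compared arrays alone and 2512 with array weights. SOD1 against NTg triceps gave 18, then 9 with quantile normalization, 9 with the 75th percentile, 7 with the 60% filter, 104 with the replicate block, 50 with array weights and 167 without crush replicate 4. SOD1 gastrocnemius against SOD1 triceps gave 364 (139 higher, 225 lower), then 278 with the 75th percentile (166 higher, 112 lower), 54 with the compared arrays alone, 1249 with array weights, 228 with gene means and 564 without crush replicate 4. The NTg muscles gave 129, then 80 with the 60% filter, 360 with array weights and 40 with gene means; the interaction gave 0, then 18 with array weights. Crush against NTg gave 311, then 494 with the replicate block and 1245 with array weights. Leaving out 1 array gave 178 (SOD1 gastrocnemius replicate 4) to 1341 (crush replicate 4) for SOD1 gastrocnemius, 3 (SOD1 triceps replicate 4) to 167 for SOD1 triceps, 45 (SOD1 triceps replicate 2) to 828 (SOD1 triceps replicate 4) between the SOD1 muscles, 30 (NTg triceps replicate 2) to 327 (NTg triceps replicate 1) between the NTg muscles, 0 to 34 (NTg triceps replicate 1) for the interaction and 94 (NTg gastrocnemius replicate 4) to 395 (crush replicate 4) for crush. The cause of these shifts was not tested. Mean signals of Fscn1 and Grb14 lay at percentiles 33.1 and 38.8 of all probe sets, near the filter. The mean of Fscn1 was above 5.88 only with crush replicates 1 to 3, the arrays that chose it, included. It averaged 6.94 in those arrays. Its group means were 5.80 in NTg gastrocnemius, 6.09 in SOD1 gastrocnemius, 5.70 in SOD1 triceps and 5.94 in NTg triceps.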
